A study of Mus musculus with 4 samples.

Results

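The cells described here are a small group of cells, sorted from dissected E12.5 mouse intestine, that express the forkhead transcription factor genes *Foxd1*, *Foxc1* and *Foxc2*. They were chosen by their own counts: a cell was a member when UMIs (unique molecular identifiers, which count single captured transcripts) of at least 3 of 6 genes were detected in it, namely *Foxd1*, *Foxc1*, *Foxc2*, *Shisa3*, *Prrx1* and *Ecm1*, and no UMI of *Sox10* or *Prph*, which mark glia and neurons. Of 23188 kept cells, 64 were members. They came from tissue labelled as intestine, but several genes of gut mesenchyme, such as *Foxf1* and *Nkx2-3*, were low in most of them. A total of 62 members came from the library of small intestine (SI) replicate 2 and 2 came from SI replicate 1. The libraries of large intestine (LI) replicates 1 and 2 held 0.

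The 4 libraries, 2 of SI and 2 of LI with the cecum, were made from untreated mouse embryos of EYFP sires and C57BL/6Nrj dams. The EYFP mice came from a cross of an R26R.EYFP reporter line with a Cre line that is not given in the sources used here. Each library pooled the intestines of several embryos, so that single embryos cannot be told apart by label. The sort took live Itgβ1+ YFP+ cells that lacked EpCAM, CD31, CD45 and Ter119, and so gated against epithelial, endothelial, immune and erythroid cells. LI replicate 1 was shallower than the other libraries (4278.5 against 8518 to 8932 UMIs in the median kept cell), and 6 to 11 barcodes were shared by any pair of libraries, none of them a member of SI replicate 2.

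Forkhead factors bind DNA through a winged helix domain, and different members of the family are used by different mesenchymes of the embryo. *Foxf1* and *Foxf2* are targets of hedgehog signaling in the mesenchyme around the gut. *Foxc1* and *Foxc2* act in paraxial and intermediate mesoderm, and *Foxd1* is best known from the stroma of the developing kidney, where it lies next to nephron progenitors that express *Six2* and *Pax2*. *Prrx1* encodes a homeobox factor of limb and craniofacial mesenchyme, *Shisa3* encodes a protein that attenuates WNT and FGF signaling, and *Ecm1* encodes a secreted matrix glycoprotein. *Hox* genes are expressed in nested domains along the body axis, with paralogue groups of higher number further to the posterior.

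In the GRCm38 (mm10) annotation, *Foxd1* lies at chr13:98354242-98359305 and *Foxc1* at chr13:31806633-31812476. *Foxc2* lies at chr8:121116171-121118895, *Shisa3* at chr5:67607882-67623552, *Prrx1* at chr1:163245119-163313710 and *Ecm1* at chr3:95734147-95739569. *Foxc2* is near *Foxf1*, with a gap of 28.0 kb, and *Foxc1* is a neighbor of *Foxf2*, with a gap of 175 kb. No transcript of *Foxd1*, *Foxc1*, *Foxc2* or *Shisa3* shared a run of 60 bases with a transcript of another gene. *Prrx1* shared such runs with 28 other genes and *Ecm1* with 1. An exon of *Shisa3* overlaps one of *Atp8a1* on the opposite strand, and whether the counting used strand is not given in the sources used here.

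Members were a rare group, and nearly all came from 1 library. They made up 0.940% of the 6595 kept cells of SI replicate 2 (95% Wilson interval 0.734% to 1.20%) and 0.0373% of the 5369 kept cells of SI replicate 1 (0.0102% to 0.136%). The count was 0 of 6438 in LI replicate 1, which allows a share of up to 0.0466%, and 0 of 4786 in LI replicate 2, which allows up to 0.0627%. These intervals and limits cover counting error only. The mean share was 0.489% ± 0.638 (SD, n = 2) in SI and 0 in LI, and the exact two-sided permutation test over libraries gave p = 0.333, the smallest value that 2 libraries against 2 can give. Without SI replicate 2 the share in SI was 0.0373%, so this library alone decided the value. No comparison of SI with LI within member cells was possible, because LI held none.

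**Figure D1:**
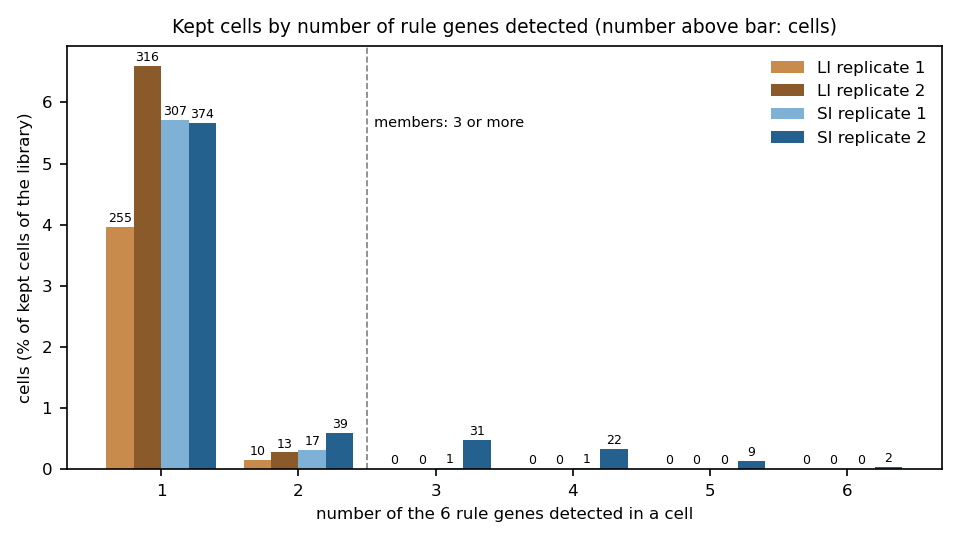
Share of kept cells of each library (vertical axis, percent) in which 1 to 6 of the 6 rule genes were detected (horizontal axis), with the number of cells above each bar and no error bars, since each bar is 1 library. Cells with 1 rule gene occurred in all 4 libraries, whereas 64 of the 66 cells with 3 or more came from SI replicate 2, of which 2 were set aside for *Sox10* or *Prph*.

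The rule genes were not simply absent elsewhere. Cells with a single rule gene made up a few percent of every library, 255 and 316 cells in LI and 307 and 374 in SI, and exactly 2 rule genes were found in 10, 13, 17 and 39 cells of LI replicates 1 and 2 and SI replicates 1 and 2. With a threshold of 2 rule genes, SI replicate 2 had 101 cells and the other libraries 7 to 18. Just inside the threshold, the 30 members of SI replicate 2 with exactly 3 rule genes had 164 CPM (a gene's UMIs in the summed cells as a share of all their UMIs, scaled to 1e+06) of *Hoxa10* and 18.0 CPM of *Foxf1*. Just outside it, the 39 cells with exactly 2 had 146 CPM of *Hoxa10* and 48.0 CPM of *Foxf1*. *Wt1* stood at 126 CPM inside and 128 CPM outside, and *Pax2* at 43.6 CPM inside and 84.0 CPM outside, so these genes did not stop at the threshold.

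In SI replicate 2 the members held most of the library's *Foxd1*. Of its 486 *Foxd1* UMIs, 394 were in members (81.1%), with 0 to 28 per member and a median of 4. *Shisa3* was the most widely detected rule gene, with UMIs in 56 of 62 members, a median of 3 and a highest value of 13. *Foxc1* and *Foxc2* were each detected in 44 members at a median of 1 UMI, with highest values of 5 and 7. *Prrx1* was detected in 25 members and *Ecm1* in 19, and members held 37.1% and 19.6% of the UMIs of these genes in the library. The commonest combination was *Foxd1*, *Foxc1*, *Foxc2* and *Shisa3*, in 10 cells, and 2 cells had all 6 genes. These values were used to choose the cells and are given as a description.

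Members were compared with cells of the same library that had no UMI of *Foxd1*, *Foxc1*, *Foxc2*, *Shisa3*, *Upk3b*, *Sox10* or *Prph*. In SI replicate 2 these were 5724 cells. Both groups are sums over cells of 1 library, so there is no replicate and no test, and a CPM ratio is given with its 95% interval for counting error. Members were deeper, with a median of 12652.5 UMIs (3533 to 27249) against 8325.5, and detection of 3 genes is more likely in a deeper cell. Of 8461 genes with a mean of 10 CPM or more, 245 (2.90%) were at least 2-fold higher in members and 297 (3.51%) at least 2-fold lower, on the scale of CPM + 5, with a median log2 ratio of 0.06 over all genes. Of the 245 higher genes, 126 had under 10 CPM in comparison cells and passed this filter only through their level in members, and 149 of the 297 lower genes had under 10 CPM in members and passed only through comparison cells. Such genes had to lean toward the group that let them pass, so counts over a gene list are descriptions and support no statement on the list. Against the 4899 comparison cells between the 5th and 95th percentile of the members' depth, 246 were higher and 297 lower.

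Among the 20 genes outside the rule that stood highest in members, 7 were *Hox* genes of groups 9 to 11, and 7 of the other 13 encode other transcription factors. *Hoxa10* reached 191 CPM in members against 2.10 in comparison cells, a ratio of 90.9 (70.8 to 117), and was detected in 52 of 62 members and in 0.804% of comparison cells. *Hoxd11* (160 against 2.32 CPM) and *Hoxc10* (133 against 1.37 CPM) were detected in 45 and 43 members. *Wt1*, a zinc finger factor of kidney, gonad and mesothelium, stood at 128 CPM in members against 7.30. *Pax2*, which kidney formation requires, stood at 38.7 against 0.174 CPM, and *Uncx*, a homeobox gene of somites and kidney, at 43.6 against 0.116 CPM. Some of these values depended on the rule. With the rule applied to cells thinned to 3000 UMIs, which left 21 members, the log2 ratio of *Pax2* was -0.049 in place of 3.08, that of *Uncx* 2.16 in place of 3.25 and that of *Hoxb9* 1.91 in place of 3.20. *Tbx18* (41.2 against 0.444 CPM), a T-box factor of ureteric mesenchyme and somites, and *Alx1* (37.5 against 0.135 CPM), a homeobox factor of craniofacial mesenchyme, belonged to the same 20. So did *Sox9*, which is required for cartilage, at 77.5 against 4.07 CPM, and *Mecom*, a zinc finger factor gene, at 35.1 against 0.0772 CPM. The other *Hox* genes of the 20 were *Hoxd10*, *Hoxb9*, *Hoxa9* and *Hoxa11*.

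The remaining named high genes encode proteins other than transcription factors. *Crabp2*, which carries retinoic acid to its receptor in the nucleus, stood at 165 CPM in members against 9.54, a ratio of 17.3 (14.2 to 20.9). *Crym*, a thyroid hormone binding protein, stood at 67.8 against 0.695 CPM. *Mme*, a membrane metallopeptidase, stood at 58.1 against 0.637 CPM. *Tril* (117 against 10.3 CPM) and *Espn* (36.3 against 0.116 CPM) were also among them. With the thinned rule the log2 ratio of *Crym* was 1.69 and that of *Espn* 2.16, in place of 3.68 and 3.01, and with at least 4 rule genes that of *Crym* was 2.29. It was larger with the thinned rule for *Crabp2* (4.43 in place of 3.54), *Sox9* (4.11 in place of 3.18), *Tbx18* (3.73 in place of 3.08) and *Mecom* (3.64 in place of 2.98).

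**Figure D2:**
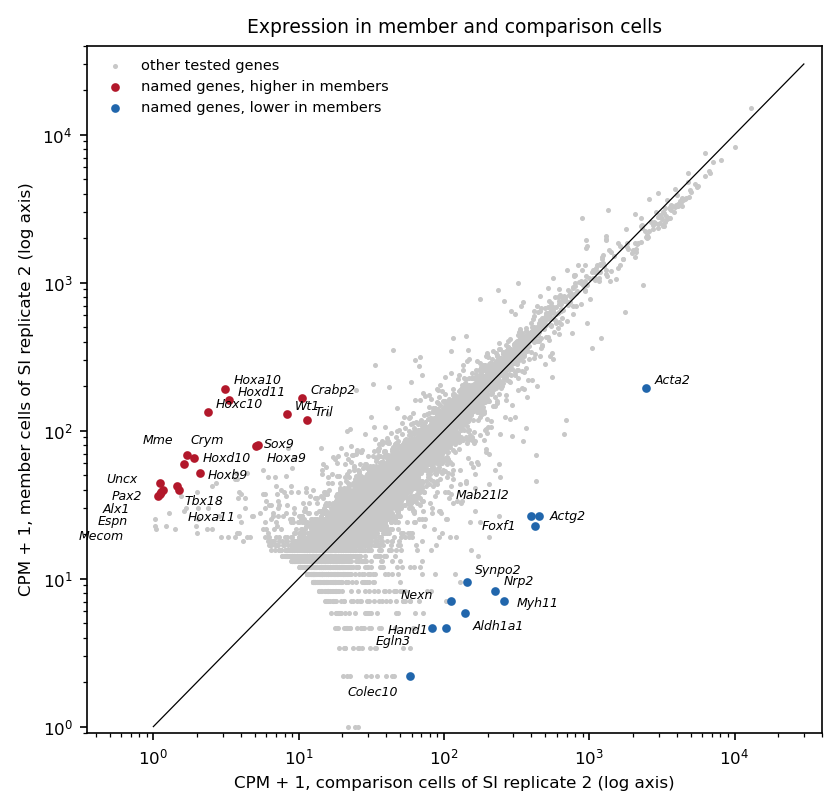
CPM + 1 of each tested gene in the summed member cells (vertical, log axis) against the summed comparison cells (horizontal, log axis) of SI replicate 2, with the line of equal values and no error bars. The labelled high genes (red) lie far above the line, *Hoxa10* at 191 against 2.10 CPM, and the 12 lowest named genes (blue) far below it, *Foxf1* at 21.8 against 425 CPM.

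The 12 genes lowest in members included genes of visceral smooth muscle and of gut mesenchyme. *Myh11*, smooth muscle myosin heavy chain, stood at 6.05 CPM in members against 259, which is 42.8-fold lower (18.3 to 132). *Foxf1* stood at 21.8 against 425 CPM, 19.5-fold lower (12.3 to 32.9), and was detected in 6 of 62 members against 82.5% of comparison cells. *Nrp2*, a semaphorin and VEGF co-receptor, stood at 7.26 against 223 CPM. *Mab21l2*, a gene of gut and eye mesenchyme whose exon overlaps *Lrba* on the other strand, stood at 25.4 against 397 CPM. *Hand1*, a basic helix-loop-helix factor of lateral mesoderm, had 3 UMIs in members, 3.63 against 102 CPM (28.0-fold, 9.59 to 136). *Aldh1a1* (4.84 against 138 CPM), *Synpo2* (8.48 against 143), *Nexn* (6.05 against 110), *Egln3* (3.63 against 82.2) and *Colec10* (1 UMI, 1.21 against 57.3 CPM) were the other genes of the lowest 12, with *Acta2* and *Actg2*.

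The label of gut tissue was also set beside the list of gut mesenchyme factors, which holds *Foxf1* and *Hand1* and so restates part of the above. Of 18 listed genes 9 could be compared, 6 were at least 2-fold lower in members, 4 of them through the level of comparison cells, and 1 was higher. *Nkx2-3*, a homeobox gene of midgut and hindgut mesenchyme, stood at 18.2 against 202 CPM. *Hand2* stood at 9.69 against 118 CPM and *Foxf2* at 6.05 against 57.4 CPM. Any UMI of *Foxf1*, *Nkx2-3*, *Hand1* or *Hand2* was found in 11 of 62 members and in 97.9% of comparison cells, although members were deeper. The single higher gene, named after its value was seen, was *Gata6*, at 41.2 against 5.95 CPM. *Tcf21*, which marks mesenchyme of gut, kidney and other organs, stood at 186 against 322 CPM and missed the 2-fold threshold.

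Of 23 listed forkhead genes outside the rule, 11 could be compared, 0 were 2-fold higher and 4 were lower, namely *Foxf1*, *Foxf2*, *Foxp2* (53.3 against 224 CPM) and *Foxp1* (167 against 374 CPM). The lower *Foxf1* and *Foxf2* lie near *Foxc2* (108 CPM in members) and *Foxc1* (92.0 CPM), which had 0 UMIs in comparison cells by the rule. *Foxl1* lies closer to *Foxc2*, with a gap of 9.05 kb, and had too few UMIs to be compared (2.42 against 5.33 CPM). *Foxd2*, a paralog of *Foxd1*, was high in members too, but its mean fell just short of the 10 CPM needed for the count. It had 16 UMIs in 11 members, 19.4 against 0.154 CPM.

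Most smooth muscle genes were low in members. All 12 could be compared, 10 were at least 2-fold lower, 4 of them with under 10 CPM in members, and 0 higher. *Acta2*, smooth muscle actin, stood at 194 CPM in members against 2475, and *Actg2*, enteric actin, at 25.4 against 450. *Myocd*, the co-activator that turns on smooth muscle genes, stood at 6.05 against 104 CPM. *Smtn* and *Des* missed the threshold, *Des* at 83.5 against 40.1 CPM. Of the comparison cells, 65.3% had a UMI of *Myh11*, *Actg2* or *Cnn1*. Against the other 1986 comparison cells the log2 ratio of *Acta2* was -0.21 in place of -3.64, within 2-fold, and that of *Foxf1* was -3.02. Those of *Nrp2*, *Aldh1a1*, *Synpo2* and *Nexn* were -2.85, -2.02, -2.21 and -1.74, in place of -4.22, -3.86, -3.45 and -3.38. What remained was uneven: 4 members with 21 to 47 UMIs of *Acta2* held 86.3% of the 160 *Acta2* UMIs and 20 of the 21 *Actg2* UMIs of all members, while 44 members had no UMI of *Acta2*. A doublet score placed 3 of these 4 cells and 10 of all 62 members (16.1%) among the library's most doublet-like cells, which made up 5.28% of its kept cells. The median score was 0.0899 in members and 0.0488 in all kept cells, and the part of doublets in the values was not tested beyond leaving these cells out. Without the 4 cells 268 genes were at least 2-fold higher and 334 lower. The same cells raised other low genes, since 3 of them held 13 of the 18 *Foxf1* UMIs of members. The log2 ratio of *Foxf1* was -4.00 over all members, -5.19 without the 4 cells, -6.04 with doublets removed and -6.43 with the thinned rule. Without the 4 cells those of *Acta2*, *Actg2* and *Mab21l2* were -6.15, -6.16 and -5.47, in place of -3.64, -3.90 and -3.72. For *Acta2* this shift was fixed by the choice of the 4 cells, and for *Actg2* it follows from the 20 UMIs they held.

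Several genes of the urogenital tract and the kidney stroma were high in members. Of 23 listed, 14 could be compared, 8 were at least 2-fold higher and 1 lower, but 5 of the 8 had under 10 CPM in comparison cells and passed the filter only through members. Among the 9 with 10 CPM or more in comparison cells, 3 were higher and 1 lower. Besides *Wt1* and *Pax2*, *Sall1*, a zinc finger factor of kidney mesenchyme, stood at 35.1 against 0.560 CPM, *Six2* at 21.8 against 0.232 CPM and *Eya1*, a co-activator of kidney mesenchyme, at 33.9 against 3.24 CPM. The nuclear receptor genes *Nr2f1* (195 against 41.1 CPM) and *Nr2f2* (432 against 141 CPM) were also higher. *Smoc2*, a matrix protein, was lower at 53.3 against 127 CPM. *Osr1*, *Meis1*, *Meis2*, *Ntn1* and *Tcf21* stayed within 2-fold, *Osr1* at 25.4 against 13.3 CPM. Some other genes on the list had few UMIs in members. *Ren1* had 0, *Pax8* 1, *Gata3* 2 and *Lhx1* 5, all 5 in 1 member (6.05 against 0.328 CPM), and the gonadal gene *Nr5a1* had 0. The files hold no kidney library, so no direct match of these cells with another tissue was made.

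The list of body wall, limb and axial mesenchyme factors split into genes that were present and genes at 0. Of 32 listed, 10 could be compared, 6 were at least 2-fold higher and 0 lower, and 21 had no UMI in members. Of the 6, 5 passed the filter only through members, and among the 5 genes with 10 CPM or more in comparison cells 1, *Twist1*, was higher. *Meox1* and *Meox2*, homeobox factors of somites, stood at 50.9 against 3.44 CPM and 37.5 against 2.90 CPM. *Prrx2*, the paralog of *Prrx1*, stood at 26.6 against 5.68 CPM and *Twist1* at 105 against 38.0 CPM. The limb factors *Tbx4*, *Tbx5*, *Lmx1b* and *Shox2*, the body wall factor *Tbx15* and the sclerotome factors *Pax1* and *Pax9* each had 0 UMIs, as had *Msx1* and *Pax3*. *Pitx1*, a hindlimb factor, had 1 UMI.

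**Figure D3:**
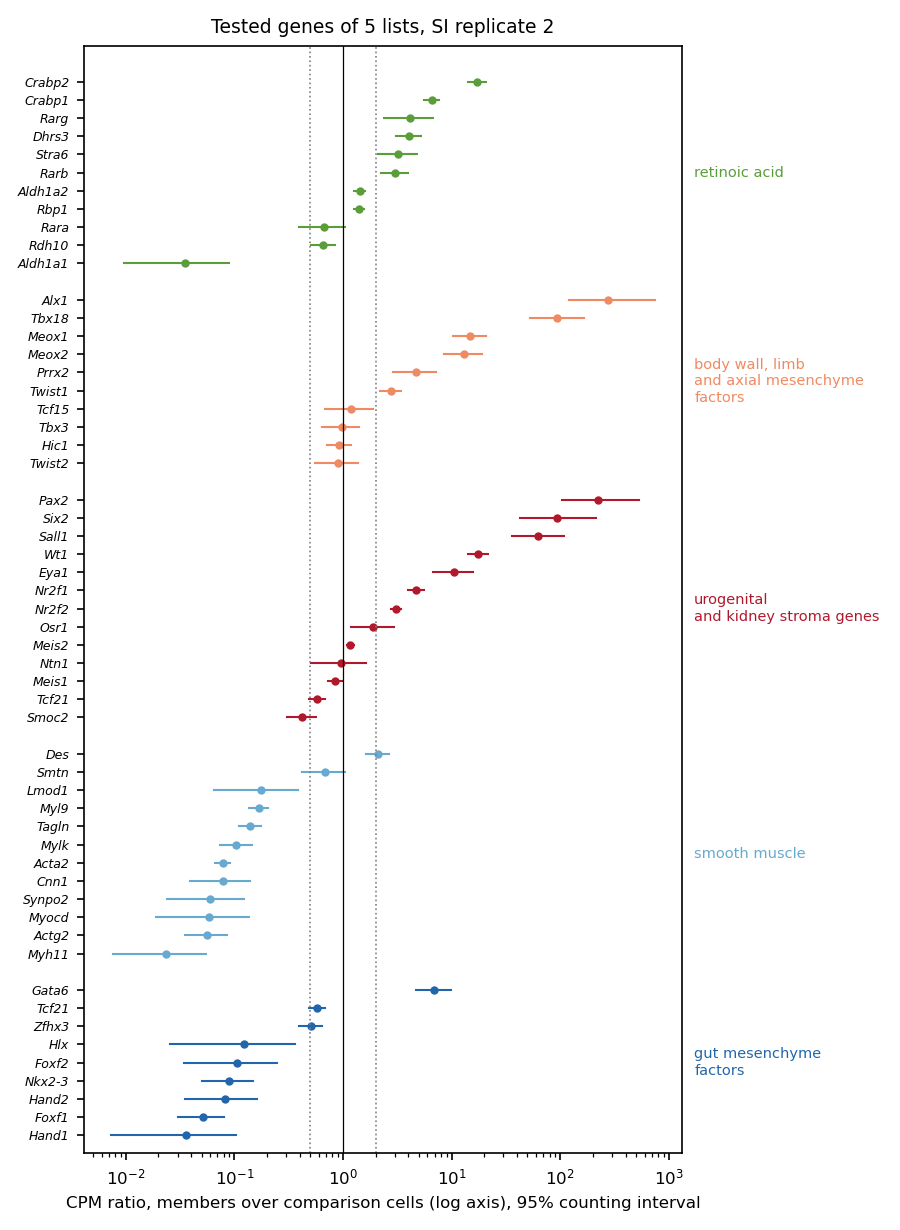
CPM ratio of members over comparison cells of SI replicate 2 (horizontal, log axis) for tested genes of 5 lists, with the 95% interval for counting error as a line and 2-fold in either direction as dotted lines. Smooth muscle and most gut mesenchyme genes lie to the left, the genes far to the right (such as *Pax2* and *Alx1*) passed the filter only through members, and *Des*, just past 2-fold here, missed it on the CPM + 5 scale used for the counts.

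Posterior *Hox* genes were high in members and anterior ones were not. Of the 39 listed *Hox* genes 26 could be compared, 9 were at least 2-fold higher in members and 7 lower. The 9 higher genes belonged to groups 9 to 11 and all had under 10 CPM in comparison cells, so each passed the filter only through members, and their number follows from it. *Hoxc9* (20.6 against 15.4 CPM), the other gene of these groups that could be compared, stayed within 2-fold, and no gene of groups 12 and 13 passed. In groups 1 to 8, 16 could be compared, 0 were higher and 7 were lower, among them *Hoxa4* (3.63 against 34.6 CPM), *Hoxb4* (31.5 against 129 CPM), *Hoxb8* (7.26 against 38.5 CPM) and *Hoxc8* (27.8 against 90.9 CPM). Any UMI of groups 9 to 11 was found in 61 of 62 members and in 14.3% of comparison cells.

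Set beside the other libraries, the levels of groups 10 and 11 in these SI cells were far above both SI libraries. Group 10 was not distinguishable from LI by its counting error, and group 11 was below the comparison cells of LI. The summed level of group 10 was 389 CPM in members (95% interval for counting error 347 to 434), 394 and 430 CPM in comparison cells of LI replicates 1 and 2, 0.330 CPM in those of SI replicate 1 and 4.38 CPM in those of SI replicate 2. For group 11 the values were 223 CPM in members (192 to 257), 306 and 267 CPM in LI, and 0.0471 and 2.84 CPM in SI. Group 9 stood lower in members (191 CPM) than in LI (407 and 291 CPM). Group 13 separated members from LI, with 1 UMI (1.21 CPM) in members and 15.19 and 13.98 CPM in LI. Single genes went either way. *Hoxb9* (50.9 CPM in members against 7.999 and 5.987 CPM in LI), *Hoxc10* (133 against 102 and 77.3 CPM) and *Hoxc11* (24.2 against 8.81 and 8.73 CPM) were above both LI libraries. *Hoxd9* (41.2 against 192 and 125 CPM), *Hoxa9* (78.7 against 143 and 116 CPM), *Hoxc9* (20.6 against 63.6 and 44.8 CPM), *Hoxd10* (64.2 against 114 and 126 CPM) and *Hoxd11* (160 against 243 and 208 CPM) were below both, each by more than the counting error of members. The counting interval of *Hoxa11* in members (38.7 CPM, 26.5 to 54.7) covered both LI values (53.4 and 50.4 CPM), and *Hoxa10* lay between them (191 against 177 and 227 CPM). *Hoxc10* shares exon sequence with a transcript of *Hoxc5* on the same strand, so reads from this sequence may not be assigned to 1 gene.

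**Figure D4:**
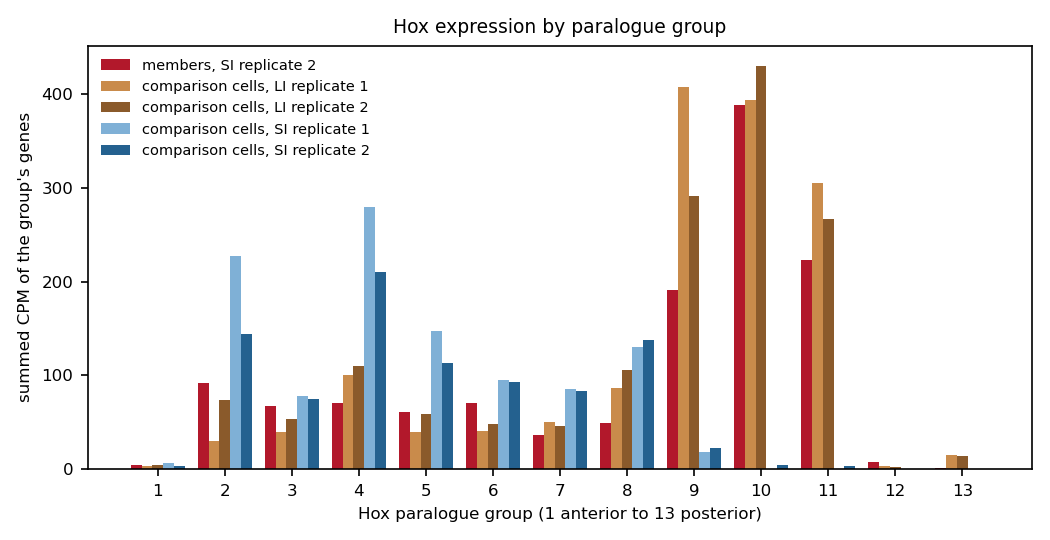
Summed CPM of the *Hox* genes of each paralogue group (horizontal axis, 1 to 13) in members of SI replicate 2 and in comparison cells of each of the 4 libraries, 1 bar each and no error bars. In group 10 the members (389 CPM) stand near the LI libraries and in group 11 (223 CPM) below them, in both far above the SI libraries, and in groups 4 and 8 they stand below the SI libraries.

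Members carried a large part of the counts of *Hox* groups 10 and 11 in their library and a smaller part of group 9. At 0.940% of its cells they held 42.7% of the group 10 UMIs of SI replicate 2, 39.8% of group 11 and 10.2% of group 9, or 24.0% of the 3 groups together. Single genes ranged from 1.87% for *Hoxc9* to 62.5% for *Hoxc11*, with 43.5% for *Hoxa10*. Over groups 10 to 13 the kept cells of SI replicate 2 had 19.8 CPM with the members and 11.8 CPM without them, against 0.483 CPM in SI replicate 1 and 665 and 643 CPM in the LI libraries. Cells resembling members that missed the rule held more. In SI replicate 2, 33 other cells had UMIs of at least 4 of the 13 highest named genes that are not *Hox* genes and none of *Upk3b*, and they held 27.0% of the *Hoxa10* UMIs. They also held 53.6% of the *Pax2* and 58.2% of the *Uncx* UMIs, against 33.0% and 36.7% in members, where both genes are among the 13 that chose these cells. High *Pax2* and *Uncx* were therefore not particular to members. The same count of 4 genes was met by 41 of 62 members. Without *Upk3b* it was met by 5, 20 and 1 other cells of LI replicate 1, LI replicate 2 and SI replicate 1.

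Members were not uniform. They were divided after their values were seen into 31 cells with 5 or more UMIs of *Foxd1*, 15 cells with *Pax2*, *Six2* or *Uncx*, and the other 16, and no cell met both of the first criteria. Medians were 13140, 13235 and 10175.5 UMIs per cell. The dividing genes are no finding, and neither are the other rule genes, since a cell with little *Foxd1* had to reach 3 rule genes through the rest. The others are given as a description.

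The 31 cells with high *Foxd1* had the highest levels of *Aldh1a2* and *Crabp1*, which were picked after their values were seen. *Aldh1a2*, which makes retinoic acid, stood at 642 CPM there against 34.9 in the *Pax2*, *Six2* or *Uncx* cells and 150 in the others. *Crabp1*, a cytoplasmic carrier of retinoic acid, was detected in 26 of 31, 0 of 15 and 2 of 16 cells. *Mme* was detected in 21, 0 and 2 cells of the 3 groups in this order.

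The 15 cells with *Pax2*, *Six2* or *Uncx* had several genes that were rare or at 0 in the other members. *Crym* was detected in 14 of 15 of them, in 0 of 31 cells with high *Foxd1* and in 1 of 16 others. *Meox2* was detected in 12, 0 and 0 cells, *Espn* in 11, 0 and 1, and *Eya1* in 9, 0 and 1. Type I collagen *Col1a2* went the other way, in 1 of 15 of these cells, 28 of 31 with high *Foxd1* and 15 of 16 others. *Tbx18* and *Alx1* were at 0 UMIs in all 15.

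The 16 other members were uneven, and 5 of them held most of the UMIs of *Sfrp2*, *Tbx18* and *Sox9*. *Sfrp2*, a secreted WNT inhibitor, stood at 672 CPM in them against 30.1 in the cells with high *Foxd1* and 54.8 in the *Pax2*, *Six2* or *Uncx* cells, but 5 of the 16 cells, with 15 to 34 UMIs each, held 118 of the 130 UMIs, and the other 11 cells held 12. The same 5 cells held 17 of the 22 *Tbx18* UMIs and 26 of the 37 *Sox9* UMIs. In the other 11 *Tbx18* stood at 32.1 CPM and *Sox9* at 70.7 CPM, near the 27.8 and 55.6 CPM of the cells with high *Foxd1*. *Tbx18* was detected in 9 of 16, 6 of 31 and 0 of 15 cells. *Wt1* was rarer, in 3 of 16 against 19 of 31 and 11 of 15. The posterior *Hox* genes ran through all 3 groups, *Hoxa10* in 25 of 31, 13 of 15 and 14 of 16 cells.

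**Figure D5:**
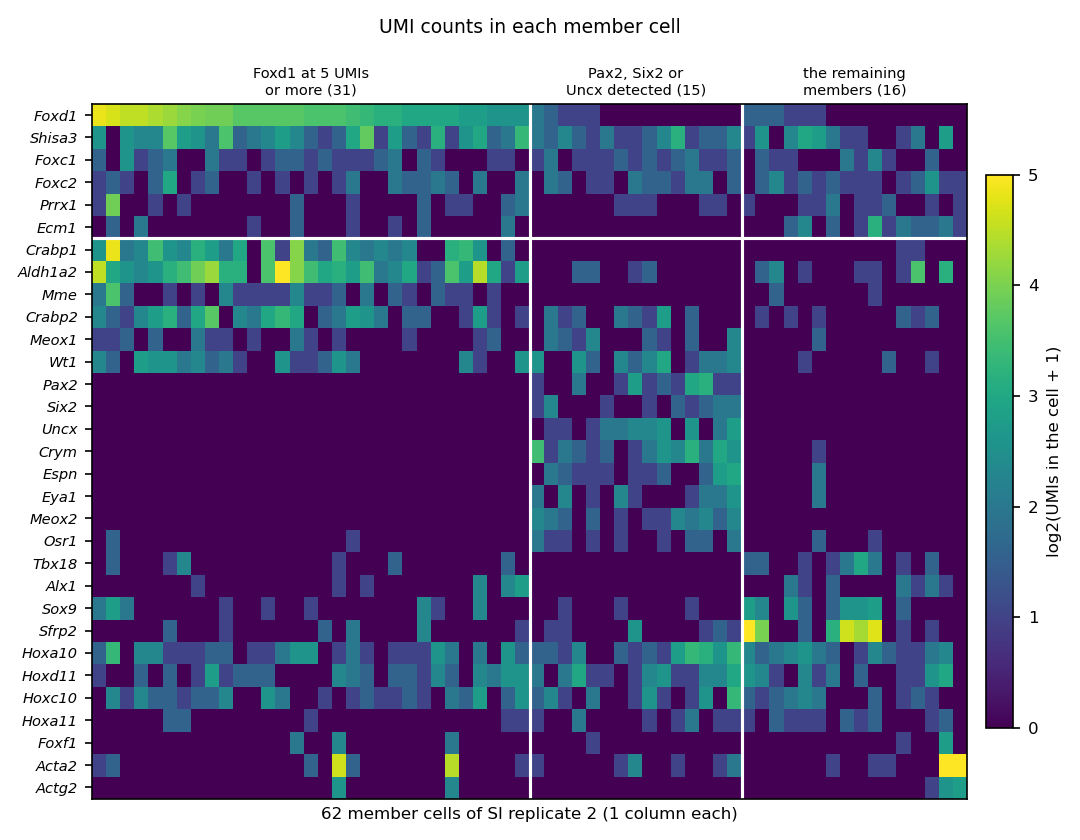
UMI counts as log2(UMIs + 1) of 31 genes (rows) in each of the 62 members of SI replicate 2 (columns), in 3 groups formed after the values were seen and ordered by *Foxd1* within each. *Crym*, *Espn*, *Eya1* and *Meox2* are nearly confined to the 15 cells of the middle group, *Crabp1* and *Aldh1a2* are highest in the left group of 31, and *Hoxa10* occurs in all 3 groups.

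The counts over lists of signaling genes went in both directions and are descriptions, to be read beside the 2.90% higher and 3.51% lower of all genes. Of 16 retinoic acid genes 11 could be compared, 6 were at least 2-fold higher, 3 of them through members alone, and 1, *Aldh1a1*, lower. *Crabp1* stood at 206 against 31.3 CPM, *Dhrs3*, a retinal reductase induced by retinoic acid, at 75.1 against 18.5 CPM, and the receptor gene *Rarb* at 63.0 against 20.9 CPM. Among hedgehog genes 9 could be compared, 1 was higher and 4 lower. The receptor and target gene *Ptch1* stood at 42.4 against 204 CPM, *Hhip*, which binds hedgehog ligands, at 3.63 against 26.6 CPM and the factor *Gli3* at 37.5 against 101 CPM, whereas *Gli1* (15.7 against 19.4 CPM) stayed within 2-fold. The co-receptor gene *Boc* was the higher gene, at 40.0 against 10.2 CPM.

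Of 10 comparable WNT genes 2 were higher, 3 lower and 5 within 2-fold, with a median log2 ratio of 0.01. *Wnt4*, a ligand of kidney and gonad formation, stood at 55.7 against 14.3 CPM, and *Wnt5a*, a ligand of gut elongation, at 27.8 against 162 CPM. Of 12 BMP genes 8 stayed within 2-fold, 1 was higher, the ligand gene *Bmp7* at 35.1 against 7.24 CPM, which passed the filter through members alone, and 3 were lower, including the antagonist genes *Fst* (23.0 against 175 CPM) and *Grem1* (2 UMIs, 2.42 against 32.3 CPM). Of 10 FGF and PDGF genes 7 stayed within 2-fold and 3 were higher, of which 2 passed the filter through members alone, namely the FGF target genes *Etv4* (23.0 against 3.03 CPM) and *Etv5* (18.2 against 5.21 CPM) and the receptor gene *Fgfr1* (130 against 60.5 CPM). Of 17 guidance genes 11 stayed within 2-fold, 3 were higher, 2 of them through members alone, and 3 lower. *Robo2*, a Slit receptor, stood at 128 against 15.02 CPM and *Sema3c* at 50.9 against 2.70 CPM.

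Markers of other cell types were low or mixed. Of 10 comparable fibroblast markers 1, *Col1a2* (345 against 110 CPM), was higher and 2 were lower, *Pdgfra* (49.6 against 113 CPM, 23 of 62 members) and *Col6a1*. Among 14 mesothelial markers 7 were at 0 UMIs, including *Msln*, *Lrrn4*, *Upk1b* and *Krt8*. Of the 2 that could be compared *Wt1* was higher, where the choice of comparison cells had used *Upk3b*. Of 7 markers each, 6 epithelial, 6 immune and 5 erythroid ones were at 0, and 4 of 11 endothelial ones were, *Cdh5*, *Kdr*, *Tek* and *Cldn5*. *Emcn*, an endothelial sialomucin, had UMIs in 5 members (7.26 against 0.0965 CPM), *Egfl7* in 13 (17.0 against 15.2 CPM), and *Pecam1*, *Esam*, *Flt1*, *Prox1* and *Lyve1* had 1 UMI each. All 3 genes of interstitial cells of Cajal were lower. Of 7 comparable enteric neural genes 5 were lower and 1, *Stmn2*, higher (67.8 against 22.5 CPM), where the choice of members had used *Sox10* and *Prph*. Of 4 pericyte genes 1, *Rgs5*, was higher (140 against 46.5 CPM). Of 4 cartilage genes *Sox9* and of 2 skeletal muscle genes *Actc1* was higher, and *Myod1* and *Myog* were at 0.

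Among the other lists, 2 of 10 imprinted genes were higher, *Peg3* (772 against 177 CPM) and *Mest* (889 against 233 CPM), and 3 were lower. Of 23 collagen genes 2 were higher and 3 lower, of 5 IGF binding genes 2 and 1, and of 12 chemokine and growth factor genes 1 and 2. *Gdnf*, the ligand of the Ret receptor, stood at 55.7 against 47.8 CPM, within 2-fold. None of 42 S phase and 51 G2M phase genes passed 2-fold in either direction. Genes induced by tissue dissociation moved with the members: 9 of 12 were at least 2-fold higher and 0 lower, *Jun* at 2748 against 893 CPM and *Fos* at 3094 against 1354 CPM, and their part in the other differences was not tested.

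Another measure in which the members of SI replicate 2 differed was *Xist*, the RNA that coats the inactive X chromosome of female cells. All 62 members had *Xist* UMIs (exact 95% interval 94.2% to 100%), between 2 and 39 per cell with a median of 13. The interval takes cells as independent draws and covers no difference between embryos. Of the 62 members, 4 had a UMI of 1 of the 4 Y-linked genes *Ddx3y*, *Eif2s3y*, *Kdm5d* and *Uty*. Among comparison cells of the same library 51.1% had *Xist* and 40.4% a Y-linked UMI. *Xist* was also found in all 35 other cells of SI replicate 2 with at least 4 of the 13 named genes, *Upk3b* cells included. It was found in 27 of 33 such cells of LI replicate 2, 1 of 2 of SI replicate 1 and 0 of 5 of LI replicate 1. Against comparison cells with *Xist* and no Y-linked UMI, 244 genes were at least 2-fold higher in members and 292 lower. The number of embryos that gave members, and the part of dissection or of the embryo in their presence in 1 library, were not tested.

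The 2 members of SI replicate 1 did not share this pattern. One had 11383 UMIs, with 1 UMI each of *Foxd1*, *Foxc1* and *Foxc2* and 2 of *Prrx1*, and it had 66 UMIs of *Acta2*. The other had 18909 UMIs, with 2 UMIs of *Foxc2*, 2 of *Shisa3* and 5 of *Ecm1*, and 3 of *Foxf1*. Neither had a UMI of *Hoxa10*, *Hoxd11*, *Hoxc10*, *Pax2* or *Xist*, and each had UMIs of 1 of the 13 named genes. The values above therefore describe members of SI replicate 2.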

How the data were processed

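Stromal cells of E12.5 SI and LI (2 libraries each) were profiled on the 10x Genomics platform with a 3′ or 5′ kit, and the kit of each library is not stated. Groups follow the sample titles, since some other labels speak of adult tissue. The authors aligned reads to mm10 with Cell Ranger (3.1.0 per the submitters' processing notes), and the deposited values are raw UMI counts, not normalized, for 28692 genes. The libraries held 5151 to 6881 barcodes and 31630548 to 62886525 UMIs.

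Cells with at least 1000 genes and mitochondrial UMIs under 10% were kept. Counts were summed over members and over comparison cells and scaled to CPM. Genes with a mean of 10 CPM were compared as log2 of CPM + 5, and ratios were given exact conditional Poisson intervals at the 95% level. For a count of 0, limits use 3 counts. The planned edgeR tests of SI against LI within members, and of their interaction with comparison cells, could not be run since LI held no member, and the comparison was made in SI replicate 2 alone instead of in all 4 libraries. The members and the 32 gene lists were chosen with earlier results of these data known, so no list is independent evidence. Named genes were the rule genes, the 20 highest and 12 lowest by log2 ratio at 30 CPM or more (without Gm, Rik, ribosomal, mitochondrial and histone genes), up to 5 genes past 2-fold per list, and *Hox* genes. Of the genes the rule named, 1 is not reported here, nor is 1 further listed gene. Further genes of a list were named after their values were seen. Doublets, scored with Scrublet in scanpy 1.11.5, were not removed from the values reported, since the automatic threshold marked only 4 to 13 cells a library. Removing the highest scores, at 0.8% per 1000 cells, was an alternative. Ratios and intervals were tested on simulated Poisson counts, the model that the intervals assume. The simulation did not imitate UMIs that are gathered in a few cells. Gene positions are from GENCODE, in which 28416 of 28692 identifiers were found. Computations used pandas 2.3.3, SciPy 1.17.1 and NumPy 2.4.6 in Python 3.11.15.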

Additional observations from a re-analysis of the deposited data

How the results depend on the processing

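No paired analysis was possible because the LI libraries held no member and nothing states that equal replicate numbers mark 1 experiment. The share of members in SI minus LI, 0.489 percentage points, was positive under each alternative and lay between 0.0373 (without SI replicate 2) and 0.940 (without SI replicate 1) when 1 library was left out, with exact permutation p values of 0.333 to 1. LI held 0 members, so of the alternatives only the threshold of 2 rule genes could have turned the sign. The difference was 0.252 with at least 4 rule genes, 0.764 with at least 2 (added after the data were seen) and 0.436 with doublets removed. With 1500 genes per cell it was 0.497. With cells thinned to 3000 UMIs it was 0.162, where SI replicate 2 had 21 members and the other libraries 0. The counts of genes at least 2-fold higher and lower, 245 and 297, rose to 532 and 520 with those 21 members, whose sums hold fewer UMIs. Under the other 7 alternatives they lay within 1.5 times of these, at 202 to 323 and 261 to 369. Among the 7, leaving out members rich in *Acta2* was added after the data were seen. So was the use of comparison cells with *Xist* and no Y-linked UMI. Of 256 values of the 32 named genes over 8 alternatives, 190 stayed within the counting interval, 63 moved outside it in the same direction and 3 reversed. The interval is of the ratio without an added constant. The 32 values of the alternative with CPM + 1 therefore stayed within it by construction. Against comparison cells without *Actg2*, *Myh11* and *Cnn1*, which are then 0 by construction, the log2 ratio was 1.14 for *Myh11* and 2.61 for *Actg2*, and that of *Acta2* was -0.21. For *Pax2* it was -0.049 with the 21 members, against 3.08, and the cause was not tested. Leaving out a replicate could not be done for gene values, which rest on 1 library, and the alternatives planned for the tests of SI against LI within members were not run.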
